A study of Rattus norvegicus with 12 samples.

Results

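Gene expression 2 weeks after joint surgery was compared between knee articular cartilage of rats that had surgery to induce osteoarthritis (OA) and of rats that had sham surgery. The comparison used 6 of the 12 arrays of the study, namely all 3 arrays labelled OA at 2 weeks and all 3 labelled sham at 2 weeks, and left out the 6 arrays taken at 8 weeks. Both groups were operated, so there is no unoperated control in the comparison. The labels refer to an earlier description of the model, which as background combines transection of the anterior cruciate ligament with partial removal of the medial meniscus. The strain, age and sex of the rats, the side of the joint taken and whether joints were pooled are not given in the sources used here. Total RNA was labelled with biotin and hybridised to 1-colour Affymetrix arrays. A level below is a log2 value per probe set, so that 1 unit is a doubling, and a difference is the mean of the OA arrays minus the mean of the sham arrays.

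Articular cartilage is a tissue without vessels whose only resident cell, the chondrocyte, is embedded in a matrix of type II collagen and the proteoglycan aggrecan. After joint injury, chondrocytes are known to divide in clusters, to turn on proteases that cut aggrecan and collagen, and to express genes of the growth plate such as type X collagen. The comparison asks which genes differ between OA and sham joints at the earlier of the study's 2 times.

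Markers of cartilage and of neighbouring tissues were both detected. Of the cartilage-defining markers, 9 of 9 were detected, at levels between 10.93 and 16.34 in the 6 arrays. The 4 markers of osteoblasts and osteocytes lay between 9.88 and 15.68, the 3 of osteoclasts between 12.53 and 14.95 and the 2 of neutrophils between 7.73 and 13.59. Both adipocyte markers, Adipoq and Plin1, were at or below 2.06 in every array, which is in the range of unexpressed probe sets. In bulk RNA, more cells of a type and more RNA per cell cannot be told apart. In each array, 48.2% to 49.0% of probe sets were above log2 4. The main axis of variation did not follow the groups: a first principal component with 42.6% of the variance set OA replicate 3 and sham replicate 3 apart from the other 4 arrays. Arrays that share a replicate number deviated together from their group means, so each comparison is also given with the number as a block where that matters. The labels do not say what a number is, so this pairing rests on the same values that the block is then fitted to.

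No probe set passed the test at 2 weeks. Of 15054 probe sets above the filter, 0 (0%) were called by limma at an adjusted p under 0.05, and the smallest adjusted p was 0.9999. With the replicate number as a block, 0 were called as well, and the smallest adjusted p was 0.0526. At an unadjusted p under 0.05 there were 276 probe sets (1.83%), of which 115 (0.764%) were higher and 161 (1.07%) lower in OA. With the block there were 853 (5.67%), of which 333 (2.21%) were higher and 520 (3.45%) lower. Where no probe set differs, a share of 0.05 passes this threshold on average. The share was below that level without the block and near it with the block. The OA arrays all lay above the sham arrays for 289 probe sets (1.92%) and all below them for 526 (3.49%). Of these 815 probe sets (5.41%), 28 (0.186% of all tested) also differed by 1 log2 unit or more, 12 higher and 16 lower in OA. With 3 arrays a group, a lack of overlap is also common where nothing differs, so below it only describes the values. No gene below, at 2 weeks, therefore passed the test, and values are given in place of a verdict.

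The precision of the comparison was moderate. The median absolute difference was 0.09, against a median standard error of 0.15. The 95% interval of the difference lay within 1 log2 unit of 0 for 13184 probe sets (87.6%). Its median half-width was 0.37 without and 0.28 with the block. A doubling or halving in OA was thus outside the interval for most probe sets. In what follows, an error after ± is the standard error from limma, with 3 arrays in each group.

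Over the 8921 named genes, 177 (1.98%) were higher and 291 (3.26%) lower in OA without overlap. At an unadjusted p under 0.05, 75 (0.841%) were higher and 89 (0.998%) lower. The 10 of the higher ones with the smallest unadjusted p belonged to different functions. Esco2, an acetyltransferase that joins sister chromatids after replication, had levels of 7.44, 7.03 and 7.11 in OA and 6.70, 6.31 and 6.33 in sham. Each OA array exceeded its same-numbered sham array by 0.72 to 0.78, the difference being 0.74 ± 0.17. Mcm5, a subunit of the replicative helicase, was at 6.63, 6.43 and 6.79 in OA and at 5.97, 6.16 and 5.90 in sham. Its groups did not overlap, with a difference of 0.61 ± 0.13 (1.52-fold). Cenpk, a kinetochore protein, differed by 0.55 ± 0.15.

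Atp6v0a4, a subunit of the proton-pumping vacuolar ATPase, had levels of 9.56, 9.43 and 9.40 in OA and 8.54, 9.03 and 8.52 in sham. The lowest OA array lay above the highest sham array, and the difference was 0.77 ± 0.16. Hsd11b1, the enzyme that regenerates active glucocorticoid, was at 9.10, 8.75 and 8.97 in OA against 8.16, 8.50 and 8.12 in sham. Its difference of 0.68 ± 0.15 had a 95% interval from 0.31 to 1.04. Gnb3, a G protein beta subunit, stood near the filter in both groups and differed by 0.70 ± 0.13. The other genes were Fam107b (0.59 ± 0.12), Trim30d (0.65 ± 0.17), Tent5c (0.47 ± 0.11) and Saysd1 (0.41 ± 0.11).

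The 10 genes chosen in the same way among those lower in OA included enzymes, an integrin and a sorting protein. Eogt, which adds N-acetylglucosamine to EGF-like domains of secreted and membrane proteins, was at 9.35, 9.18 and 9.78 in OA and at 10.54, 10.62 and 10.59 in sham. The OA arrays all lay below the narrow sham range, and the difference of -1.15 ± 0.17 had the largest size among these 20 genes. Snx10, a sorting nexin needed by osteoclasts to resorb bone, had levels of 9.55, 9.9993 and 10.36 in OA and 10.70, 10.90 and 11.03 in sham. Its groups did not overlap, with a difference of -0.91 ± 0.22. Cyp4f6, a cytochrome P450 of fatty acid hydroxylation, differed by -0.91 ± 0.16.

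Itgav, the alpha V integrin subunit that binds vitronectin and activates latent TGF-beta, was at 12.10, 12.30 and 12.19 in OA and at 12.70, 12.51 and 12.68 in sham. No OA array reached the sham range, and the difference was -0.44 ± 0.10. It was smaller in size, down to -0.17, at the least different of its 3 probe sets. Eno2, an enolase of glycolysis, differed by -0.32 ± 0.08. The remaining genes were Tlcd3a (-0.46 ± 0.11), Katnbl1 (-0.44 ± 0.11), Rhobtb1 (-0.41 ± 0.10), Fkbp7 (-0.41 ± 0.11) and Nsrp1 (-0.41 ± 0.11). For Katnbl1 the 3 probe sets ranged from -0.44 to 0.01.

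**Figure D1:**
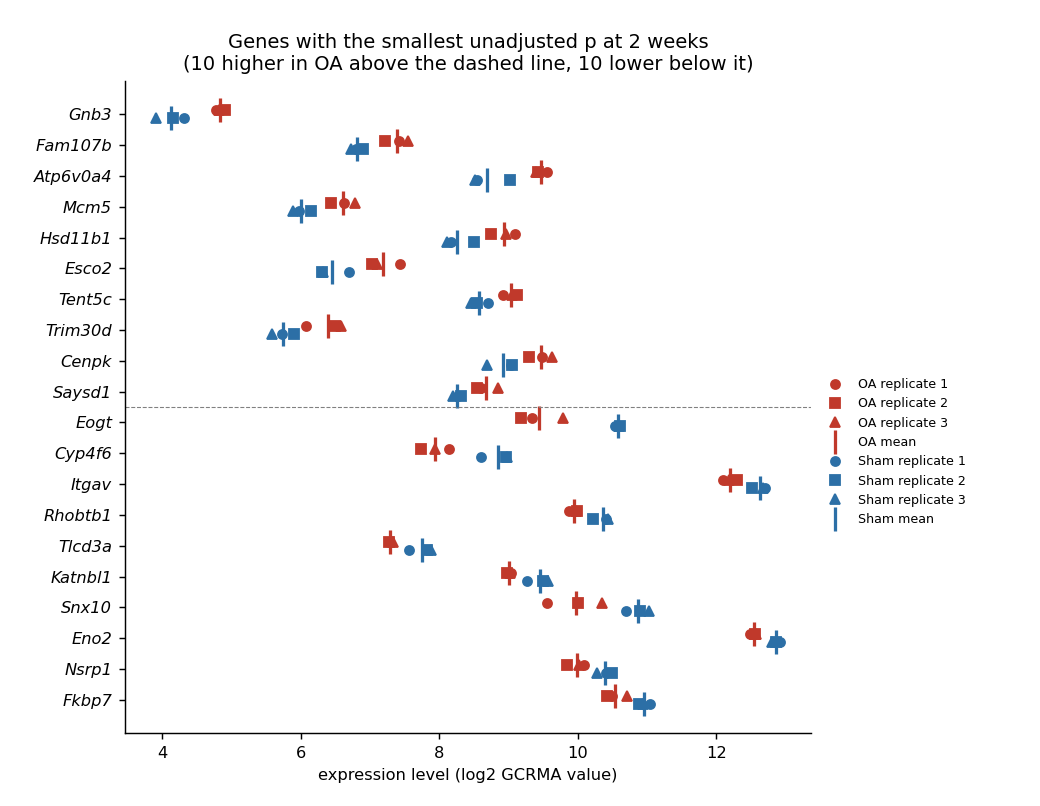
Levels (log2 values, horizontal axis) of the 10 genes higher and the 10 genes lower in OA at 2 weeks that had the smallest unadjusted p and no overlap between the groups; circles, squares and triangles are replicates 1, 2 and 3, and vertical bars are means of 3 arrays. The gap between red (OA) and blue (sham) is widest for Eogt, at -1.15, and no gene passed the adjusted test.

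A pair of probe sets outside that rule, chosen after their values were seen, had the smallest unadjusted p of all. A second probe set of Col1a1, the main collagen chain of bone and fibrous tissue, was at 11.49, 11.65 and 11.47 in OA and at 12.37, 12.43 and 12.70 in sham, a difference of -0.96 ± 0.12. The brighter probe set of the same gene, with levels from 14.08 to 14.72, differed by only -0.21 ± 0.16 and its groups overlapped, so the probe sets of Col1a1 disagreed in size. Mga, a MAX dimerisation protein that represses transcription, was at 10.21, 9.65 and 9.60 in OA and at 8.19, 8.11 and 8.47 in sham, with a difference of 1.56 ± 0.20. Here too the brighter probe set disagreed, with levels from 12.36 to 12.62 that overlapped and a difference of 0.05 ± 0.10.

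The gene list with the largest differences was that of neutrophil and eosinophil granules, whose proteins marrow cells make while they mature. Among these genes, 11 of 25 listed passed the filter, and 9 of the 11 were higher in OA. They had a median difference of 2.28, against -0.01 over all 8921 genes. In the same-numbered pairs the median was 2.55, 2.20 and 2.00. The same 9 genes were each higher in OA in all 3 pairs, as were 1022 of all genes (11.5%). With the replicate block, 8 of the 11 had an unadjusted p under 0.05 and a higher level in OA, against 211 of all genes (2.37%). Without the block 4 of the 11 did, against 75 of all genes (0.841%). The groups did not overlap for 3 of the 11, all higher in OA, against 177 of all genes (1.98%). In 1 of the 11, Camp, all OA arrays were above the filter at 4 while the sham mean was below it.

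Camp, the antimicrobial peptide cathelicidin, was at 4.90, 7.45 and 6.93 in OA and at 2.36, 4.97 and 4.39 in sham. The groups overlapped, since OA replicate 1 lay just below sham replicate 2, yet each OA array exceeded its same-numbered sham array by between 2.48 and 2.55. The difference of 2.52 had a standard error of 0.92 without the block and a 95% interval from 2.32 to 2.73 with it. Camp had the smallest adjusted p of the blocked fit, 0.0526. Np4, a neutrophil defensin, had levels of 10.62, 12.86 and 12.42 in OA and 8.44, 10.62 and 10.31 in sham, and differed by 2.18 ± 0.80. Its lowest OA array and its highest sham array were level to 2 decimals, and its adjusted p with the block was 0.0563.

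Prg2, the major basic protein of eosinophil granules, was at 5.84, 9.03 and 7.68 in OA and at 2.39, 4.97 and 4.91 in sham. Every OA array lay above every sham array, and the difference of 3.43 ± 1.04 was the largest of all genes. Defa5, another alpha-defensin, was at 11.56, 13.31 and 12.98 against 8.79, 11.19 and 11.04, also without overlap, with a difference of 2.28 ± 0.78. RatNP-3b differed by 2.56 ± 1.10. The defensin genes are close copies of each other, so their probe sets may share signal and their values are uncertain as separate genes.

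S100a9 and S100a8 encode calprotectin, the most abundant protein pair of the neutrophil cytosol. S100a9 was at 10.98, 13.59 and 13.38 in OA and at 8.28, 11.36 and 11.27 in sham. OA replicate 1 fell inside the sham range while the other OA arrays lay above it, and the difference was 2.35 ± 1.08. S100a8 had the same order of arrays and differed by 2.47 ± 1.15. Lcn2, the siderophore-binding lipocalin that chondrocytes also make, differed by 0.84 ± 0.45. Pglyrp1 differed by 0.19 ± 0.15, Csf3r by -0.01 ± 0.08 and Chi3l1, which cartilage itself expresses, by -0.26 ± 0.85.

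Sham replicate 1 had the lowest level of the list, with a mean of 7.48 against 9.42 and 9.03 in the other sham arrays, and OA replicate 1 was the lowest OA array, at 9.50 against 11.07 and 10.42. Without sham replicate 1 the median difference was 1.34 and without both arrays numbered 1 it was 2.13, with 9 and 10 of the 11 genes above 0. The granule genes also accounted for 6 of the 20 probe sets with the smallest p in the blocked fit, against 11 of all 15054 tested. The pairing of that fit was itself taken from these arrays. The 6 share the same order of arrays within each group, so they are not independent of each other. At 8 weeks the median difference of the same 11 genes was -0.19, and the change between the times passed the test for 0 of them.

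**Figure D2:**
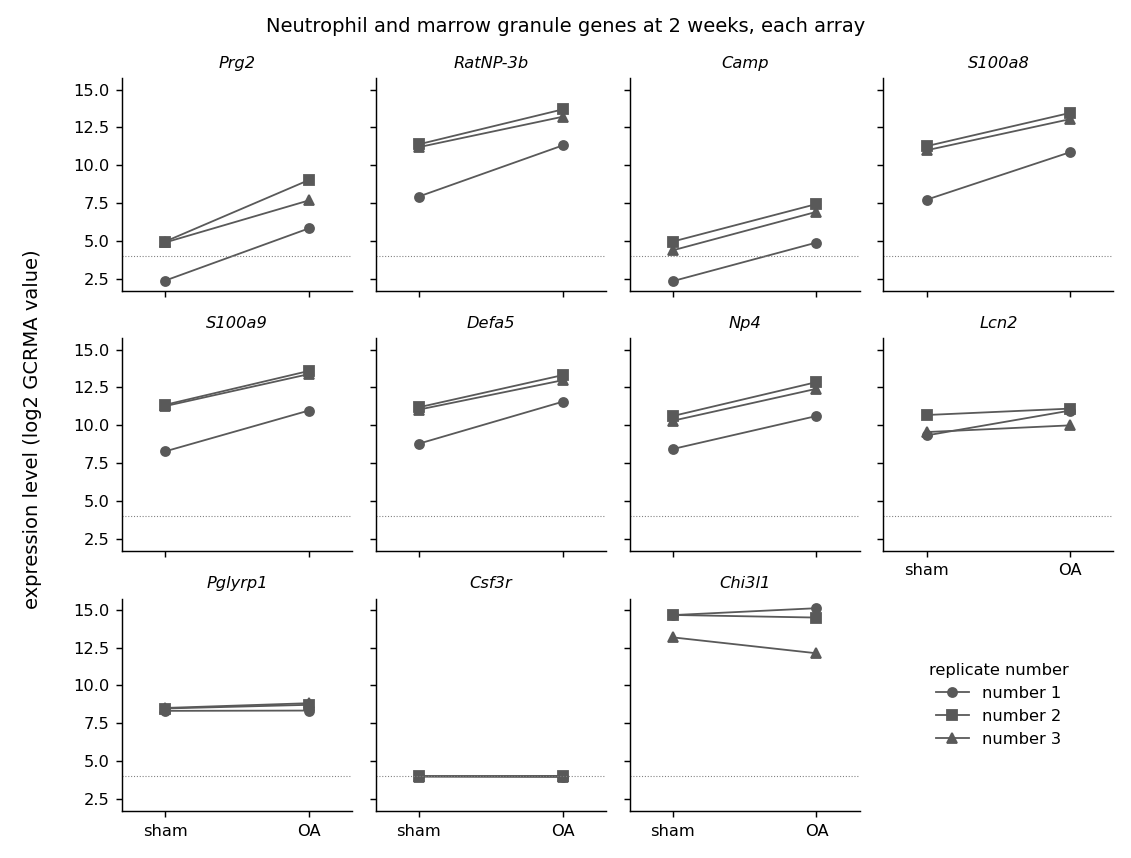
Levels (log2 values, vertical axis) of the 11 granule genes above the filter in each array at 2 weeks, with a line joining the sham and OA arrays of the same replicate number; the dotted line marks the filter at 4. For 9 genes all 3 lines climb, though Lcn2 and Pglyrp1 only by 0.84 and 0.19 on average. The other 7 climb by 2.18 to 3.43 on average, and in these the circles, replicate 1, are lowest within each group. The lines are nearly parallel for Camp and Np4 and less so for others, such as RatNP-3b, which climbs by 3.37, 2.30 and 2.00.

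The promoters of the granule genes, and of the cell cycle genes below, were read from RefSeq (rat build GRCr8). The stretch read was 250 bases before the gene start, 5′ to 3′ on the gene's strand. Kept members of both lists were searched whatever their difference, so the shares describe the lists and not the difference between OA and sham. C/EBP factors drive granule gene expression in maturing neutrophils, and their motif was searched as TTNNGNAAT on both strands. It occurred in 3 of the 8 granule genes with a promoter in the table (37.5%), against 2936 of 27456 promoters (10.7%) and 470 of 7483 promoters of genes kept here (6.28%). The 3 promoters are shown with the match in capitals, Np4 at chr16:77199643-77199892 on the minus strand, RatNP-3b at chr16:77248978-77249227 on the minus strand and S100a9 at chr2:178490623-178490872 on the minus strand. The Np4 and RatNP-3b matches have the same letters in near-identical surroundings, so they are not independent.
Np4: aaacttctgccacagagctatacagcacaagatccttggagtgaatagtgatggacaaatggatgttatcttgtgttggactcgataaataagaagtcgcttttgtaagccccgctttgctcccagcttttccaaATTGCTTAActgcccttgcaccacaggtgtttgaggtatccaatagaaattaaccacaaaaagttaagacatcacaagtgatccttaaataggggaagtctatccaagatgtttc
RatNP-3b: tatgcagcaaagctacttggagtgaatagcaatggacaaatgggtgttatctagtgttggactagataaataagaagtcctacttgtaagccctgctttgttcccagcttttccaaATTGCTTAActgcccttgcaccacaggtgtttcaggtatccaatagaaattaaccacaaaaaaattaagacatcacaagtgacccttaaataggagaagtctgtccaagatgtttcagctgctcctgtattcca
S100a9: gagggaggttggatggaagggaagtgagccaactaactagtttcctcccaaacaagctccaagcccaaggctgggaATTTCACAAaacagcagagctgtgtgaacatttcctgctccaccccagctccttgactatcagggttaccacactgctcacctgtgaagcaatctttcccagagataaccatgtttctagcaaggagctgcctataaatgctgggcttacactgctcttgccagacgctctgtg

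E2F factors switch on replication genes at the entry to S phase, and their site was searched as TTTGGCGC, TTTCGCGC or TTTCCCGC on both strands. Of 35 cell cycle genes with a promoter in the table, 7 held a match (20%), against 408 of 27456 promoters (1.49%) and 220 of 7483 promoters of genes kept here (2.94%). Mcm5, the cell cycle gene with the smallest p, had 3 matches at chr19:13488563-13488812 on the plus strand, of which 2 overlap on opposite strands. Mcm2, another subunit of the same helicase, had 2 overlapping matches at chr4:122918095-122918344 on the minus strand. A match describes these letters and does not show that a factor binds there. Both lists group genes by function, so a share above that of all promoters does not bear on the 2-week differences.
Mcm5: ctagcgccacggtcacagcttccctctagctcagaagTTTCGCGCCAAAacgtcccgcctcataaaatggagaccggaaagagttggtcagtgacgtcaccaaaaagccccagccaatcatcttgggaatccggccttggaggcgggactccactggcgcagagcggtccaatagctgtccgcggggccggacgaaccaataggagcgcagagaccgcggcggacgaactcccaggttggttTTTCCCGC
Mcm2: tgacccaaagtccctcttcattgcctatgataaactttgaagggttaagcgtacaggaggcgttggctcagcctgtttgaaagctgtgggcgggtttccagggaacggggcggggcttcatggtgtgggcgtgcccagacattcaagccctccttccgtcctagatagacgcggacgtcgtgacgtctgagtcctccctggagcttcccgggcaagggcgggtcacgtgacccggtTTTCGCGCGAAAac

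Genes of the cell cycle and DNA replication were slightly higher in OA at 2 weeks across almost the whole list. Of 56 listed genes, 42 passed the filter, and 41 of the 42 were above 0, against 45.5% of all genes. Their median difference was 0.44, with medians of 0.19, 0.25 and 0.88 in pairs 1, 2 and 3. In all 3 pairs, 33 of the 42 genes were higher in OA, against 11.5% of all genes. At an unadjusted p under 0.05, 3 were higher (Mcm5, Cenpk and Mcm4), against 0.841% of all genes. With the replicate block 16 were higher at that p, against 2.37% of all genes.

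Mki67, the Ki-67 proliferation antigen, was at 11.37, 11.74 and 10.94 in OA and at 10.94, 10.86 and 9.70 in sham. OA replicate 3 and sham replicate 1 were level to 2 decimals, and sham replicate 3 stood below all others. The difference was 0.85 ± 0.39, with a 95% interval from 0.36 to 1.34 under the block. Mcm4, a helicase subunit, was at 10.80, 11.04 and 10.60 in OA and at 10.56, 10.33 and 10.24 in sham, with no overlap and a difference of 0.43 ± 0.15. Pcna, the sliding clamp of DNA polymerase, differed by 0.24 ± 0.10. The mitotic genes Ube2c and Ccnb2 had larger and more variable differences, of 1.004 ± 0.54 and 0.70 ± 0.47. The lowest value of the list was -0.18 for Dlgap5, a spindle protein.

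The size rested in part on sham replicate 3, whose mean level over the 42 genes was 7.93, against 8.83 to 9.11 in the other arrays numbered 1 and 2 and 8.74 in OA replicate 3. Without sham replicate 3 the median was 0.13, with 30 of 42 genes above 0. Without both arrays numbered 3 it was 0.24, with 37 of 42 above 0. At 8 weeks the median difference of these genes was -1.04, with 39 of 42 below 0. The test of the change between the times called 0 of the 42.

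**Figure D3:**
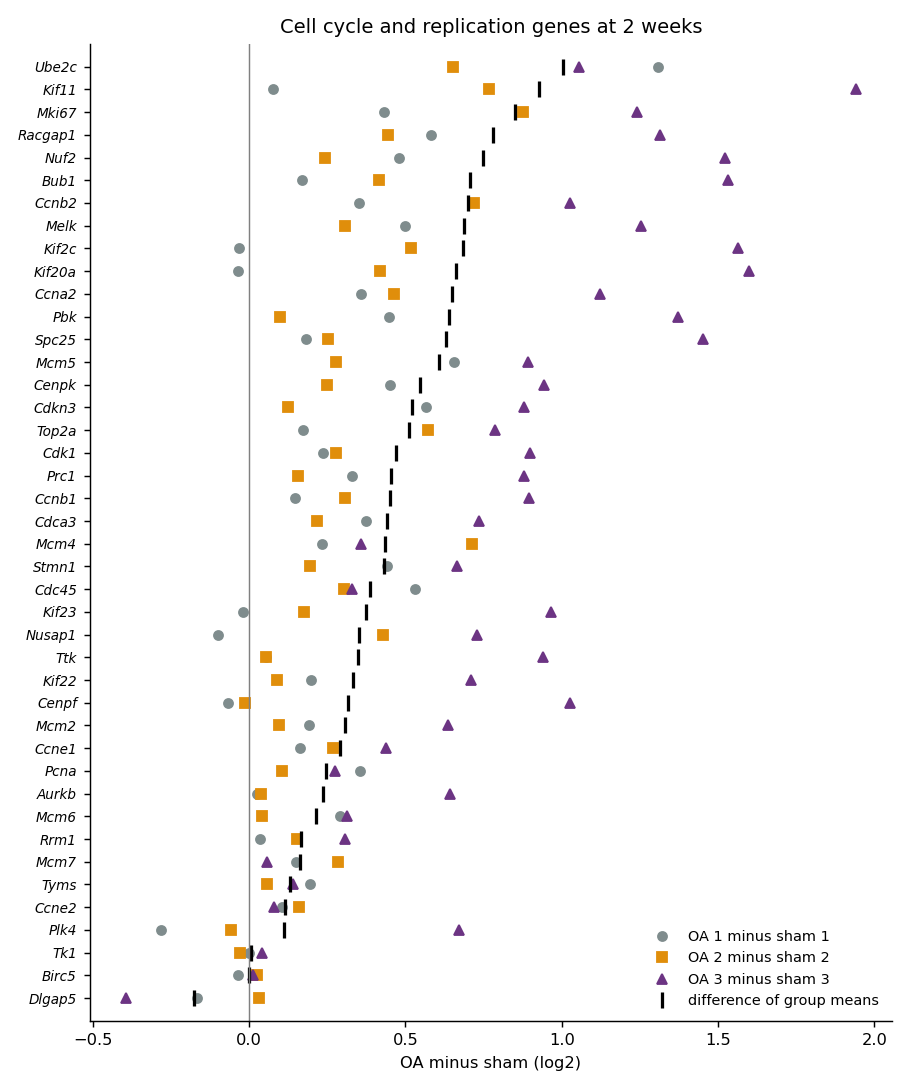
OA minus sham difference (log2, horizontal axis) of the 42 cell cycle genes at 2 weeks, within each same-numbered pair of arrays (symbols) and between group means (black bars). All bars but that of Dlgap5 lie at or above 0, and the triangles of pair 3, with a median of 0.88, lie farthest to the right for 33 genes.

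The matrix genes that define cartilage hardly differed between the groups. Of 30 listed, 26 passed the filter, 12 above and 14 below 0, with a median of -0.01. Col2a1, the main collagen of cartilage, was at 16.11, 16.05 and 16.04 in OA and at 15.99, 16.00 and 16.08 in sham. The groups overlapped and the difference was 0.04 ± 0.08. It was negative after quantile normalization (-0.05) and over the mean of its probe sets (-0.01). Acan, the aggrecan core protein, differed by 0.07 ± 0.09, with a 95% interval from -0.16 to 0.30. Dcn, decorin, differed by -0.34 ± 0.25 and Ogn, osteoglycin, by -0.21 ± 0.14.

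Genes of hypertrophy and mineralization were above 0 in 12 of 17 cases, with a median of 0.07. The medians were 0.23, 0.02 and -0.09 in pairs 1, 2 and 3, and without sham replicate 1 the median was -0.02. Col10a1, the collagen of hypertrophic chondrocytes, was at 15.59, 15.39 and 15.33 in OA and at 15.13, 15.15 and 15.32 in sham. The OA arrays all lay above the sham arrays, though OA replicate 3 by only 0.01, and the difference was 0.24 ± 0.11. Mef2c, a transcription factor that drives hypertrophy, had levels of 14.78, 14.51 and 14.66 in OA and 14.31, 14.24 and 14.52 in sham, which overlapped narrowly, and differed by 0.30 ± 0.12. Vegfa, which attracts vessels to mineralizing cartilage, differed by -0.15 ± 0.09.

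The enzymes that build glycosaminoglycan chains and collagen fibrils were more often below than above 0, as were all genes (4866 of 8921 below 0). In glycosaminoglycan synthesis and sulfation 14 of 19 genes were below 0, with a median of -0.05. The median was 0.009 without OA replicate 2 and 0.007 without sham replicate 3, so its sign rested on single arrays. B3gat3, which completes the linker between a core protein and its chain, was at 7.04, 6.54 and 7.75 in OA and at 8.20, 7.54 and 8.72 in sham. The groups overlapped, but each pair differed by between -0.97 and -1.16, and the difference was -1.04 ± 0.41. Ext1, a heparan sulfate polymerase, differed by -0.45 ± 0.23. In collagen processing 13 of 19 were below 0, with a median of -0.08 that was 0.003 without OA replicate 2. Among them were Bmp1, the procollagen C-proteinase, at -0.44 ± 0.19, and Plod1, a lysyl hydroxylase, at -0.35 ± 0.17. P3h3, a prolyl 3-hydroxylase family member, stood apart at 0.67 ± 0.33.

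For the main collagenase, stromelysin 1 and the aggrecanases, the 95% interval of the difference included 0. Mmp13, the main collagenase of cartilage, was at 15.17, 15.0012 and 14.47 in OA and at 14.94, 14.80 and 15.01 in sham. Its groups overlapped and the difference was -0.04 ± 0.20, which was 0.22 without both arrays numbered 3. Mmp3, stromelysin 1, had levels of 14.83, 14.95 and 14.95 in OA and 14.91, 14.69 and 14.59 in sham, which overlapped, and differed by 0.18 ± 0.11. The aggrecanases Adamts4 and Adamts5 differed by 0.15 ± 0.44 and -0.25 ± 0.45, with 95% intervals from -0.93 to 1.23 and from -1.36 to 0.85.

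Over all matrix proteases, 18 of 29 were below 0, with a median of -0.06. Adamts12, a protease that cleaves cartilage oligomeric matrix protein, was at 8.12, 7.63 and 7.59 in OA and at 9.35, 9.75 and 8.06 in sham. OA replicate 1 lay just above sham replicate 3, and the difference was -1.28 ± 0.45. Adamts9 differed by 0.71 ± 0.37. Among protease inhibitors, Tfpi2, which blocks plasmin and other serine proteases, was at 9.04, 8.01 and 10.29 in OA and at 7.52, 7.59 and 7.61 in sham. All OA arrays exceeded the tight sham range, by unequal amounts, and the difference was 1.54 ± 0.55 (2.91-fold). Timp1, an inhibitor of metalloproteinases, differed by -0.08 ± 0.28.

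Genes of fibrous and repair matrix were lower in OA in 38 of 47 cases, against 4866 of 8921 genes below 0. Their median was -0.14, and with the block 10 had an unadjusted p under 0.05 and a lower level, against 282 of all genes (3.16%). Without the block 2 of the 47 did, against 89 of all genes (0.998%). Ccn1, a matricellular protein induced by mechanical load and growth factors, was at 9.55, 9.01 and 8.89 in OA and at 12.85, 9.62 and 12.62 in sham. Sham replicates 1 and 3 were far above all other arrays while sham replicate 2 was close to OA, and the difference was -2.55 ± 0.88. Tnc, tenascin C, was at 13.55, 13.14 and 13.16 in OA and at 14.06, 13.83 and 13.45 in sham, which overlapped, and differed by -0.50 ± 0.20. The basement membrane genes Nid1 and Col4a2 differed by -0.73 ± 0.36 and -0.68 ± 0.37. Without sham replicate 1 the median of the list was -0.04, with 26 of 47 genes below 0. In the list of integrins and adhesion genes 20 of 27 were below 0.

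Ligands, receptors and antagonists of growth factor pathways showed no common direction. Tgfa, which encodes an EGF receptor ligand, was at 10.73, 10.93 and 11.19 in OA and at 10.82, 10.82 and 10.91 in sham. The groups overlapped and the difference of 0.10 ± 0.14 had a 95% interval from -0.23 to 0.43. A second Tgfa probe set differed by 0.53. Egfr, its receptor, differed by -0.21 ± 0.48. Hbegf, another ligand, differed by -0.44 ± 0.25, and Rhbdf1, a protein that helps release such ligands, by -0.60 ± 0.31.

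In the IGF axis, Igfbp6, a binding protein that prefers IGF-II, was at 8.65, 8.01 and 7.36 in OA and at 10.15, 9.00 and 9.12 in sham. Its groups did not overlap, with a difference of -1.42 ± 0.44 and a second probe set at -0.93. Stc2, stanniocalcin 2, which restrains IGF release, differed by 0.52 ± 0.24. In TGF-beta and activin signalling 10 of 17 genes were below 0, and Inhba, the activin A subunit, differed by -0.13 ± 0.16. BMP and GDF signalling was split into 11 above and 11 below 0, and WNT signalling into 6 and 11.

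Stress-responsive genes were mostly below their sham level. In the list of immediate early and heat shock genes 19 of 24 were below 0, with a median of -0.22. Fos, a subunit of the AP-1 transcription factor, was at 13.88, 13.61 and 12.91 in OA and at 14.14, 14.16 and 14.55 in sham. The groups did not overlap, OA replicate 3 being the lowest, and the difference was -0.82 ± 0.27. Ier2, another early response gene, differed by -0.32 ± 0.13, again without overlap. Dnaja1, a co-chaperone of Hsp70, went the other way, at 0.20 ± 0.10. Without sham replicate 3 the median was -0.10, with 14 of 24 genes below 0.

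All 16 genes kept from the list of serine synthesis and ATF4 targets were below 0, with a median of -0.24. Phgdh, the first enzyme of serine synthesis, was at 8.12, 7.76 and 6.92 in OA and at 8.43, 8.37 and 9.17 in sham. No OA array reached the sham range, and the difference was -1.06 ± 0.37. Asns, asparagine synthetase, differed by -0.54 ± 0.27, and Shmt2, the mitochondrial enzyme that passes on the carbon of serine, by -0.38 ± 0.20. Atf4, the factor that induces these genes when amino acids or protein folding fail, was at 13.27, 13.07 and 13.29 in OA and at 13.35, 13.36 and 13.46 in sham, a difference of -0.18 ± 0.10 without overlap. In the unfolded protein response 25 of 31 genes were below 0, with a median of -0.07. Without sham replicate 3, 14 of the 16 serine and ATF4 genes stayed below 0.

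Inflammatory genes did not move as one group. Ccl2, the chemokine that recruits monocytes, was at 8.39, 7.78 and 7.92 in OA and at 7.86, 8.43 and 5.75 in sham. Only sham replicate 3 stood apart, and the difference of 0.68 ± 0.69 became -0.12 without it. Ptgs2, the inducible cyclooxygenase, differed by 0.29 ± 0.23, and Ptgs1, its constitutive relative, by -0.34 ± 0.16. Tnfaip3, the NF-kB inhibitor A20, was at 9.06, 9.08 and 9.23 in OA and at 9.63, 9.34 and 9.55 in sham, with no overlap and a difference of -0.38 ± 0.11. Ackr3, a scavenging chemokine receptor, had a difference of -0.33 ± 0.10, while Cxcr4, which binds the same ligand, differed by 0.61 ± 0.29.

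Interferon response genes included the opposite pair Rsad2 and Ifit2. Rsad2, the antiviral protein viperin, was at 8.67, 11.14 and 10.98 in OA and at 8.29, 8.92 and 8.33 in sham, with OA replicate 1 inside the sham range and a difference of 1.75 ± 0.68. Ifit2, an interferon-induced RNA-binding protein, differed by -0.95 ± 0.32. Of the 19 interferon genes, 12 were below 0. In the complement list 10 of 15 were below 0, among them Cd55, a complement inhibitor of cell surfaces, at -0.96 ± 0.39. C3, the central complement factor, differed by 1.03 ± 0.78.

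Markers of other cell types showed which neighbouring tissues varied beside these results. Macrophage genes were above 0 in 10 of 23 cases, with medians of -0.05, -0.52 and 0.56 in the 3 pairs, so that the pairs pointed in opposite directions. Their mean level ranged from 9.16 to 9.95 in OA and from 8.60 to 10.28 in sham. Csf1r, the receptor of macrophage colony-stimulating factor, differed by -0.35 ± 0.20, and MHC class II genes were below 0 in 6 of 8 cases. Erythroid genes were above 0 in 6 of 7 cases, with a median of 0.39 (0.18 without both arrays numbered 3) and mean levels from 10.29 to 10.91 in OA and from 10.17 to 10.41 in sham. Fech, the last enzyme of haem synthesis, was at 9.80, 10.27 and 10.32 against 9.77, 9.36 and 9.74, with no overlap and a difference of 0.51 ± 0.19. Jchain, the joining chain of immunoglobulins, differed by 1.41 ± 0.84 and was higher in OA in each pair. Cd3e, a T cell receptor component and the other kept gene of the T, B and NK cell list, differed by 0.01 ± 0.17. The part that a changed share of marrow or blood cells had in the granule and cell cycle differences was not tested.

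Bone-resorbing cells were represented by Acp5, the tartrate-resistant acid phosphatase of osteoclasts, at 14.03, 13.97 and 14.14 in OA and 14.24, 14.37 and 14.71 in sham. The groups did not overlap and the difference was -0.39 ± 0.14. Mmp9, an osteoclast gelatinase, was at 12.84, 12.53 and 12.56 in OA against 12.95, 13.03 and 13.68 in sham, a difference of -0.58 ± 0.22. In the osteoclast list 8 of 10 genes were below 0, with a median of -0.16, while Car2, the carbonic anhydrase that supplies protons, differed by 0.87 ± 0.41. Osteoblast and osteocyte genes were above 0 in 10 of 15 cases, with a median of 0.04. Endothelial genes were below 0 in 13 of 14 cases, with a median of -0.29 (-0.51 without OA replicate 1 and -0.12 without OA replicate 3) and mean levels from 7.07 to 7.71 in OA and from 7.37 to 7.71 in sham. For 1 of the 14, all arrays of 1 group were above the filter at 4 while the mean of the other group was at or below it. Kdr, a VEGF receptor, differed by -0.32 ± 0.21, whereas Ramp2, a partner of the adrenomedullin receptor, differed by 0.67 ± 0.42. Skeletal muscle genes varied between arrays rather than groups, with mean levels from 7.51 to 9.99 in OA and from 8.23 to 9.29 in sham. Markers of synovial fibroblasts, tendon and ligament were below 0 in 12 of 13 cases, with a median of -0.12. The medians were -0.40, 0.02 and -0.02 in pairs 1, 2 and 3, and 2 of the 13 genes were lower in all 3 pairs. Their mean level was 9.58 to 9.67 in OA and 10.07, 9.83 and 9.53 in sham, so the groups overlapped.

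Oxidative phosphorylation genes were split into 15 above and 17 below 0, with a range from -0.13 to 0.16. In hypoxia and glycolysis 24 of 34 genes were below 0, with a median of -0.06, and Slc2a3, a glucose transporter, differed by -0.40 ± 0.23. Antioxidant genes were above 0 in 16 of 30 cases, with Nqo1, a quinone reductase, at 0.44 ± 0.23 and Mt3, a metallothionein, at -0.34 ± 0.16. Abcg1, a cholesterol exporter, differed by -0.31 ± 0.11 with no overlap, and Nr1d2, a repressor of the circadian clock, by 0.33 ± 0.16.

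**Figure D4:**
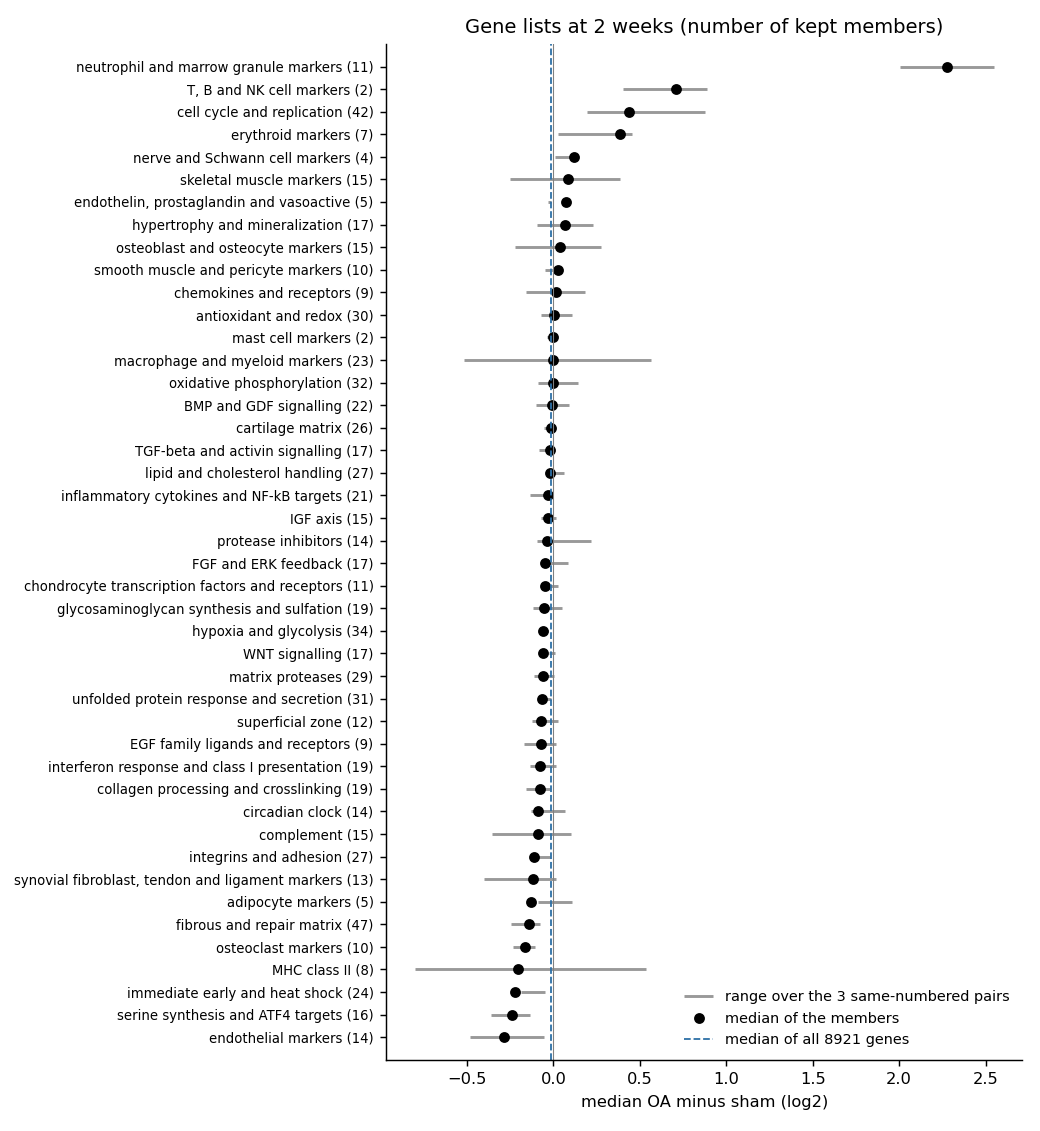
Median OA minus sham difference at 2 weeks (log2, horizontal axis) of the kept members of each of the 44 gene lists (points) and the range of the medians within the 3 same-numbered pairs of arrays (grey lines); the dashed line is the median of all 8921 genes, -0.01. The granule list, at 2.28, stands far from the others, and all others but that of T, B and NK cell markers, with 2 members, lie between -0.29 and 0.44. A point can lie outside its line because a median of differences need not fall between the medians of the pairs.

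The 2-week differences were set beside those at 8 weeks, which come from other arrays and share no control with them. Of 95 genes called higher in OA at 8 weeks in the fit of all 12 arrays, 52 were above 0 at 2 weeks, with a median of 0.01, and 0 differed by 1 log2 unit or more. Of 227 genes called lower at 8 weeks, 161 were below 0 at 2 weeks, with a median of -0.09, and 1 differed by 1 or more. Over all 9247 genes of that fit, 45.3% were above 0 at 2 weeks. The test at 8 weeks itself called 552 of 15934 probe sets (3.46%).

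The change of the difference from 2 to 8 weeks was tested in the 12 arrays and called 22 of 15934 probe sets (0.138%), 10 more positive and 12 more negative at 8 weeks. Tgfa had the smallest adjusted p, 0.00102, with a change of 2.92 ± 0.21. Mmp3 changed by 1.39 ± 0.20, while its OA mean was 14.91 at 2 weeks and 14.93 at 8 weeks and its sham mean was 14.73 and 13.36. Mmp3 kept the call in 3 of the 12 limma fits that each left out 1 array. It lost the call whenever a 2-week array was left out, with adjusted p-values of at least 0.0686. The call was also lost without 8-week OA replicate 2 (0.0746), sham replicate 2 (0.120) or sham replicate 3 (0.105). Cd68, a lysosomal protein of macrophages, had the largest change, -5.94 ± 0.63, from a 2-week difference of -0.52 ± 0.22. Of the 15 called genes with a name, 5 (Tgfa, Itga8, Cd68, Fez1 and Enc1) stayed called whichever array was left out.

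**Figure D5:**
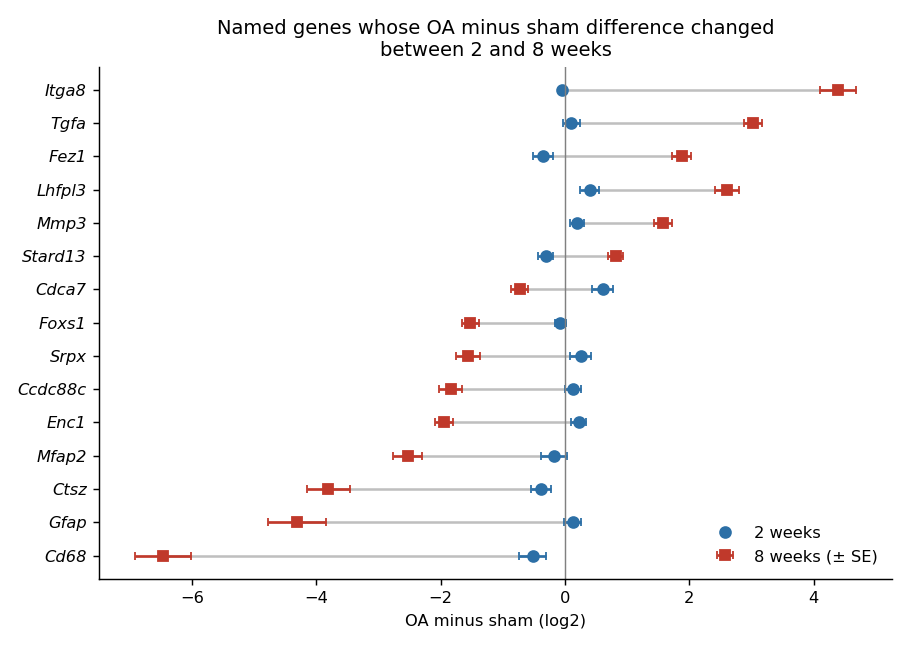
OA minus sham difference (log2, horizontal axis) at 2 weeks (circles) and 8 weeks (squares) of the 15 named genes whose difference changed between the times; bars are standard errors, from the 6 arrays at 2 weeks and from all 12 at 8 weeks, and Itga8 was below the filter at 2 weeks and has no bar there. The circles lie between -0.52 and 0.60, and the squares between -6.46 and 4.39.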

How the data were processed

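The values are the deposited log2 levels of 31099 probe sets, which the authors made with GCRMA, per the submitters' processing notes, with its version not given in the sources used here. GCRMA corrects background, normalizes between arrays and summarizes probes, and it compresses differences near its floor. Control probe sets (57) were dropped, and 15054 above log2 4 in at least 3 of the 6 arrays were kept. Probe sets with exactly 1 symbol in the array annotation (20832, against 436 with several and 9831 with none) were named. A gene was represented by its kept probe set with the highest mean (8921 genes).

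A mean per group was fitted to the 6 arrays with limma 3.58.1 in R 4.3.3 (4 residual and 1.89 prior degrees of freedom), and p-values were adjusted by Benjamini-Hochberg over all kept probe sets, with calls under 0.05. The labels number replicates from 1 to 3 and do not say what a number or a replicate is, so p-values measure only the spread between these samples. Deviations from the group means correlated at 0.36, 0.37 and 0.53 in same-numbered pairs and between -0.39 and 0.06 in others, so the numbers were taken as pairs, from the data and not the design, and a fit with the number as a block was added. The change to 8 weeks was fitted to all 12 arrays. The scripts were tested on simulated data.

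The 44 gene lists hold 1168 genes, of which 732 were kept. The comparison, the lists and the genes of interest were chosen with earlier results of these data known, and the promoter motifs and the counts with arrays left out after the data were seen. Named genes are the 10 per direction of smallest unadjusted p among those with groups that do not overlap and means above 4, the 2 to 4 members of each list with the smallest p, and 16 genes of interest. Of these, Edn1 was below the filter (at most 2.76), Prg4 has no probe set with a single symbol and is unnamed here, and another is not reported here. Further members of the granule and cell cycle lists were named after their values were seen. Alternatives changed the filter, normalization, variance model, array weights, probe set rule, block and arrays. Figures were drawn with Python 3.11.15, pandas 2.3.3 and matplotlib 3.10.9.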

Additional observations from a re-analysis of the deposited data

Results flagged for a closer look

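For 15 named genes the OA minus sham difference changed between 2 and 8 weeks by the test of the change in the 12 arrays (limma, adjusted p under 0.05). None of them had passed the test at 2 weeks. A fit without 1 of the 2-week or 8-week arrays called between 7 and 80 probe sets, against 22 with all arrays.

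The difference became more positive at 8 weeks for 6 genes. The change was 4.44 ± 0.41 for Itga8, an integrin subunit that was below the filter at 2 weeks, and 2.92 ± 0.21 for Tgfa. It was 2.23 ± 0.21 for Fez1, a kinesin adaptor, and 2.21 ± 0.28 for Lhfpl3, a membrane protein. Mmp3 changed by 1.39 ± 0.20 and Stard13 by 1.12 ± 0.17. At 2 weeks these genes lay between -0.35 and 0.39, and the 95% interval excluded 0 for Lhfpl3 (0.39, from 0.01 to 0.78) and for Stard13 (-0.31, from -0.60 to -0.02).

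The difference became more negative for 9 genes. Lysosomal proteins of macrophages and osteoclasts among them were Cd68 and Ctsz. The change was -5.94 ± 0.63 for Cd68, with an 8-week OA mean below the filter, and -3.42 ± 0.48 for Ctsz. It was -4.43 ± 0.66 for Gfap, an intermediate filament protein. Matrix and membrane genes among them were Mfap2, a microfibril protein, at -2.35 ± 0.33 and Srpx at -1.82 ± 0.27. Enc1, an actin-binding protein, changed by -2.17 ± 0.21 and Ccdc88c by -1.97 ± 0.27. The transcription factor Foxs1, with an 8-week OA mean of 3.35, also below the filter, changed by -1.45 ± 0.19.

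Cdca7, a chromatin protein of dividing cells, changed by -1.33 ± 0.20. It was at 8.61, 9.00 and 9.14 in OA and at 8.17, 8.4047 and 8.37 in sham at 2 weeks, without overlap, a difference of 0.60 ± 0.16. At 8 weeks its difference was -0.73, so that it went from above to below 0.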

How the results depend on the processing

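No probe set was called at 2 weeks under any alternative, and the smallest adjusted p was 0.38 or more except with the replicate block (0.0526) and with 12 arrays and the replicate block within each time (0.131). The replicate block moved the counts at an unadjusted p under 0.05 from 115 higher and 161 lower to 333 and 520, and changed no call. With 12 arrays and that block they were 250 and 356, and with array weights 267 and 245. The higher count was 179 with no filter, 224 after quantile normalization and 208 with equal array medians. The lower count was 328 without both arrays numbered 3. Leaving out 1 array gave 73 to 323 higher and 93 to 283 lower. The 22 changes between the times became 8 with no filter, 130 with array weights and 7 to 80 with 1 array left out.

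Of 117 genes, 101 kept their direction in all alternatives. Apart from the genes of interest, they were chosen by the smallest p of their direction or list in these same arrays. Changes of filter, variance model or block leave a difference as it is. Where groups do not overlap, leaving out 1 array cannot turn the sign. The count is therefore partly fixed by the choice and is no separate evidence of stability. Col2a1 was at -0.046 after quantile normalization and at -0.0060 over the mean of its probe sets, where Id2 was at -0.087. Tpsb2 was at 0.0093 with equal medians. Array weights gave -0.049 for Cd3e and -0.019 for Hdc. Without both arrays numbered 3, Cfd was at 0.015, Hdc at -0.0058, Ccl2 at -0.061, Mmp13 at 0.22 and Adamts5 at 0.0020. With 1 array left out, the sign changed for Gfap (-0.0071 to 0.22), Adamts4 (-0.20 to 0.49), RT1-Bb (-0.36 to 0.068), Cd3e (-0.14 to 0.12), Hdc (-0.024 to 0.034), Tgfa (-0.019 to 0.21), Egfr (-0.61 to 0.097), Mmp13 (-0.18 to 0.17), Adamts5 (-0.70 to 0.17), Timp1 (-0.32 to 0.12), Lpl (-0.24 to 0.057), Cfd (-0.91 to 0.013) and Ccl2 (-0.12 to 1.22). The causes were not tested. Of 44 list medians, 30 changed sign in some alternative, and 760 of 791 alternatives lay within 1 SD, taken between arrays of a group. With 3 arrays a group, the median interval half-width of 0.37 applies to 1 probe set without adjustment. It is not a detection limit of the adjusted test, which called no difference of any size, including the 3.43 of Prg2.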

Other observations

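Some probe sets not described above, chosen after their values were seen, had a small unadjusted p. Gng2, a G protein gamma subunit, was at 4.07, 4.15 and 4.59 in OA and at 5.47, 5.12 and 5.9961 in sham, a difference of -1.26 ± 0.26 without overlap. A second probe set of Cdc45, a helicase subunit on the cell cycle list, was at 4.92, 4.92 and 4.60 in OA and at 4.19, 4.29 and 3.88 in sham, a difference of 0.70 ± 0.15. The brighter Cdc45 probe set, which stands for the gene in that list, differed by 0.39 ± 0.21 and its groups overlapped. A probe set without a gene symbol in the annotation was at 3.69, 4.65 and 4.84 in OA and at 5.49, 6.50 and 6.53 in sham, with a difference of -1.78 ± 0.41. Its same-numbered arrays differed by nearly equal amounts, and its adjusted p with the replicate block was 0.0921.

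Acta1, the actin of skeletal muscle, varied widely among the arrays, at 11.18, 7.78 and 4.21 in OA and at 6.85, 9.65 and 7.44 in sham. Its groups overlapped over most of their range.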
